A study of Mus musculus with 6 samples.

Results

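Markers of the mural cells of brain vessels, 10 genes in all, were read on 6 microarrays of mouse brain. They were Acta2, Pdgfrb, Notch3, Atp13a5, Tagln, Myh11, Rgs5, Kcnj8, Abcc9 and Vtn, each taken by its gene name in the array annotation, and they made up 10 of 27578 named genes and 10 of 39429 probes on the array. The study compared male Pla2g2e-/- mice (knockout, 3 arrays) with male wild-type mice (3 arrays), both on the C57BL/6N background and both titled as sham-operated brain. Pla2g2e encodes a secreted phospholipase A2. The treatment text of all 6 samples describes an occlusion of the middle cerebral artery, against their titles, and the groups here follow the titles. The labels used here give neither the ages, nor the brain region, nor which part of Pla2g2e was deleted, and they do not say that samples came from separate animals, so the spread between arrays may be technical.

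The 10 members were not chosen blind to the outcome. Acta2, Pdgfrb, Notch3 and Atp13a5 had been picked out by their lower values in knockout on these same arrays, and the rest came from a list of mural markers tested in that contrast. The difference between genotypes in the members is therefore given as a description, with no test. Each value is the log2 of the probe's processed signal minus the 75th percentile of that array, so that 0 is a signal higher than those of about 3 in 4 probes, and a difference of -1 is a halving.

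Mural cells wrap the outside of the endothelial tube. Smooth muscle cells ring the arteries and arterioles and contract through smooth muscle actin and myosin, whereas pericytes sit along capillaries within the basement membrane. Endothelial cells release platelet-derived growth factor B, which recruits pericytes through the receptor encoded by Pdgfrb, and Notch3 is the Notch receptor of mural cells. Vascular tone is also set by a potassium channel that opens when cellular ATP is low. Its pore and regulatory subunits in these cells are encoded by Kcnj8 and Abcc9.

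Contractile genes are turned on by serum response factor at a short element called the CArG box, and the start of Acta2, the member with the largest difference, is shown for that reason. The RefSeq promoter table (GRCm38.p6) held 7 of the 10 members, all but Pdgfrb, Tagln and Myh11, with 250 bases before and 50 after each start. Both strands were searched for the CArG box with at most 1 letter off its core of A and T. Acta2 was the 1 member of these 7 to have it, the other contractile genes not being searched, in 2 places (capitals), as CCCTATATGG at bases -84 to -75 and CCTTGTTTGG at bases -34 to -25 from the start in the table. At least 1 such box occurred in 9.98% of all 32851 promoters of this length, and at least 2 in 0.822%. The letters are a description of this window and not evidence of binding. The 150 bases before the start lie at chr19:34255374-34255523, minus strand.
Acta2: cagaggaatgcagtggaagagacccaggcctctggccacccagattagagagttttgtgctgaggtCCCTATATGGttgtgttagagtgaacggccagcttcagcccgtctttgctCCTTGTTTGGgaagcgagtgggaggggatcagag

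Every member was read by 1 probe of 60 bases, so no second probe could be set beside any of them. Acta2 and Vtn were printed in 10 spots per array and the other members in 1, which gave 28 member spots on each array. No spot of a member was marked as saturated or as an outlier (0 each), and all 10 probes were well above background on all 6 arrays. In the coordinates of the files (mm9) the probes lay on chromosome 19 for Acta2 (34316060 to 34316119), chromosome 9 for Tagln (45738097 to 45738156), chromosome 17 for Notch3 (32257848 to 32257907) and chromosome 1 for Rgs5 (171623021 to 171623080). The probes of Atp13a5 (29232360 to 29232419) and Myh11 (14202190 to 14202249) were both on chromosome 16. Those of Kcnj8 (142513487 to 142513546) and Abcc9 (142536920 to 142536979) were on chromosome 6, with 23373 bases between them. Exons and untranslated regions of that build were not used here. The probe of Vtn spanned 273 genomic bases for its 60 letters, so it joins sequence that is apart in the genome. Its letters, and those of Myh11, which gave a dim signal, are printed to show what the array measured.
Vtn, chr11:78315393-78315665, plus strand, mm9: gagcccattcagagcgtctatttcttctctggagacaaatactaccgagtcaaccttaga
Myh11, chr16:14202190-14202249, minus strand, mm9: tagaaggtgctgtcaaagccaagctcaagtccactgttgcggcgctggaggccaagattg

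Between 82.0% and 85.3% of the 43020 non-control spots were well above background on each array. All 12 markers of neurons, astrocytes, oligodendrocytes and microglia were well above background on all 6 arrays, as labelled for brain. Knockout 1 shared a slide with the 3 wild-type arrays, whereas the other slide, with its own scan time, held knockout 2 and 3. Wild-type 3 stood apart in tissue markers, with a summed signal of striatum markers of 49.9 (in units of the array's 75th percentile), against a lowest of 13.7 in wild type and a range of 15.3 to 16.9 in knockout. The 2 probes of Pla2g2e were dim, with knockout minus wild type at -0.59 and 0.33, and did not check the genotype labels. Precision is limited by having 3 arrays per genotype.

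All 10 members averaged lower in knockout than in wild type, with a median log2 difference of -0.28, where the median of all 22578 genes tested was -0.01. In 4 members, Acta2, Pdgfrb, Notch3 and Atp13a5, all 3 knockout values lay below all 3 wild-type values, whereas the groups overlapped in the other 6. Over all genes tested, 12.2% had groups apart in this direction and 7.60% in the other (19.8% in all), and 53.1% averaged lower in knockout. Since this contrast chose the members, nothing is read from their count. In limma's test with Benjamini-Hochberg adjustment 0% of genes passed (0 of 22578), members included, and 2806 genes (12.4%) had an unadjusted p under 0.05, 9.35% of all genes being lower in knockout by that measure. Even if the mural values were truly lower, fewer mural cells and less RNA per cell could not be told apart in such bulk samples.

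**Figure D1:**
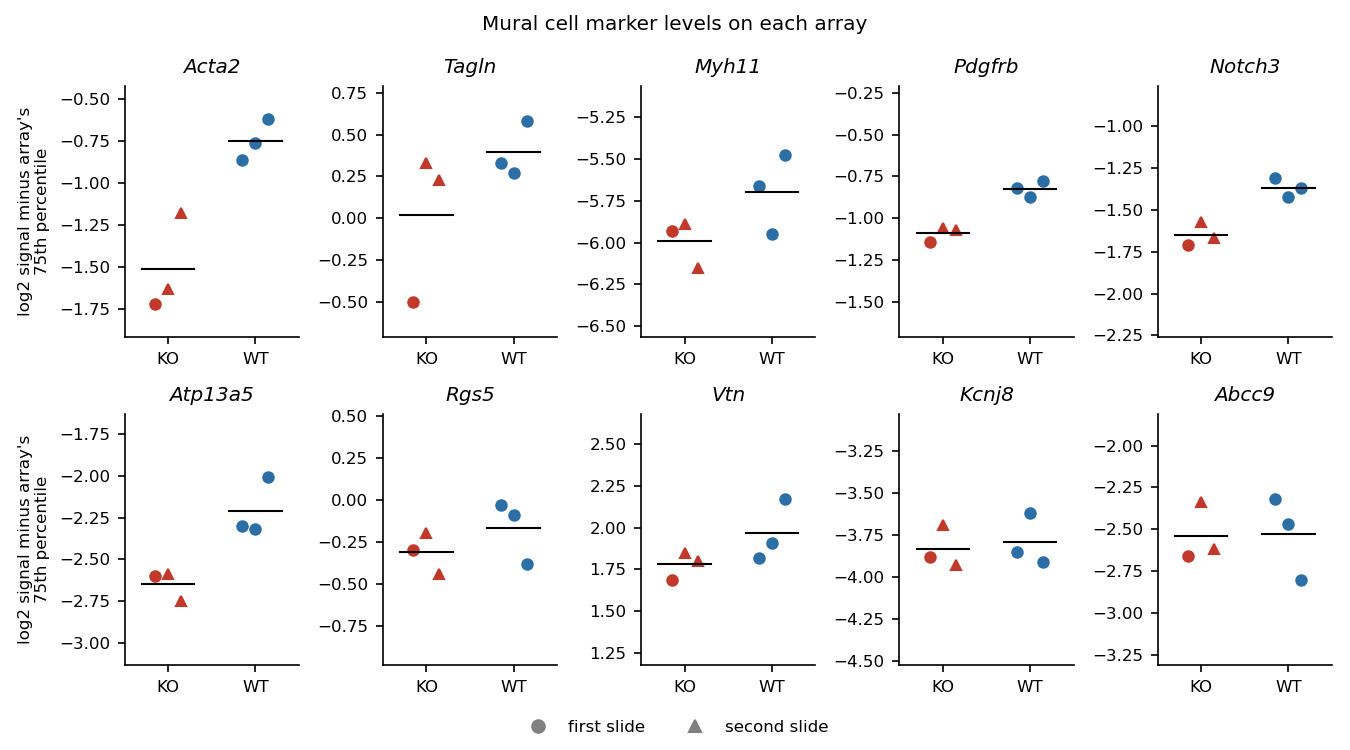
Level of the 10 markers on each array (log2 signal minus the array's 75th percentile), with knockout (KO) left of wild type (WT), circles for the first slide, triangles for the second and a line at each group's mean. Every panel spans the same log2 range, and the groups stand apart in Acta2, Pdgfrb, Notch3 and Atp13a5.

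The contractile genes differed from each other in which arrays were low. Acta2, which encodes smooth muscle alpha-actin, read -1.72, -1.63 and -1.18 on knockout 1, 2 and 3, against -0.86, -0.76 and -0.62 on wild-type 1, 2 and 3. The knockout arrays were all lower, with a gap of 0.31 between the highest knockout and the lowest wild-type value, and knockout 3 lay nearest to wild type. The means of -1.51 ± 0.29 in knockout and -0.75 ± 0.12 in wild type (SD, n = 3 each) differed by -0.76 ± 0.16 (SE), so that the knockout signal was 59.0% of the wild-type one. Before scaling, its processed signal averaged 649.7, 633.2 and 980.7 on the knockout arrays and 1133, 1133 and 1293 on the wild-type arrays. The 10 spots of Acta2 on an array varied with a coefficient of variation of 5.79% to 7.01% in knockout and 5.44% to 6.28% in wild type. These spots are repeats of 1 probe on 1 sample and are not replicates.

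Tagln encodes transgelin (SM22), an actin-binding protein of smooth muscle, and behaved differently from Acta2 across the knockout arrays. It read -0.50, 0.33 and 0.23 on knockout 1, 2 and 3, against 0.33, 0.27 and 0.58 on wild-type 1, 2 and 3. Knockout 1 stood well below the wild-type arrays, knockout 3 lay just below their lowest value, and knockout 2 lay within their range. The mean difference of -0.37 ± 0.24 (SE) became -0.11 without knockout 1 and was -0.90 between knockout 1 and the wild-type arrays of the same slide. Myh11, the smooth muscle myosin heavy chain, was dim, with processed signals of 31.27 to 35.10 in knockout and 31.00 to 44.33 in wild type. It read -5.93, -5.89 and -6.15 on knockout 1, 2 and 3, against -5.66, -5.95 and -5.48 on wild-type 1, 2 and 3, a difference of -0.29 ± 0.14 (SE) with overlapping groups. Normexp background correction with quantile normalization (normexp below) gave -0.05, and its added offset of 50 shrinks dim differences by construction. Quantile normalization without that correction gave -0.14, and median centring -0.15.

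The receptors Pdgfrb and Notch3 had small differences with little spread. The probe of Pdgfrb lay on chromosome 18 (61244606 to 61244665, mm9). Pdgfrb read -1.14, -1.06 and -1.07 on knockout 1, 2 and 3, against -0.82, -0.87 and -0.78 on wild-type 1, 2 and 3. Its groups were 0.19 apart, while the values ranged over 0.07 within knockout and 0.09 within wild type. The difference was -0.27 ± 0.06 (SE), or 83.0% of the wild-type signal. Notch3 is the receptor whose human form is altered in the hereditary small-vessel disease CADASIL. It read -1.71, -1.57 and -1.67 on knockout 1, 2 and 3, against -1.31, -1.42 and -1.37 on wild-type 1, 2 and 3, a difference of -0.28 ± 0.07 (SE) with groups 0.15 apart. Relative to the wild-type mean, knockout 1, from the same slide, differed by -0.32 for Pdgfrb and -0.34 for Notch3. Knockout 2 and 3 differed on average by -0.25 and -0.26. Both receptors were picked for low knockout values and their groups did not overlap. The signs were thus fixed beforehand, and nothing is read from them about the slides. After median centring, which raised the median of all genes to 0.13, the differences were -0.13 and -0.14, and the Notch3 groups overlapped.

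Atp13a5 encodes a P-type ATPase that marks brain pericytes in the mouse. It read -2.60, -2.59 and -2.75 on knockout 1, 2 and 3, against -2.30, -2.32 and -2.01 on wild-type 1, 2 and 3. The groups were 0.27 apart, and wild-type 3 was the highest array. The means of -2.65 ± 0.09 in knockout and -2.21 ± 0.17 in wild type (SD, n = 3 each) differed by -0.44 ± 0.11 (SE), and by -0.34 without wild-type 3. Between knockout 1 and the wild-type mean of its slide the difference was -0.39, a sign that follows from how this member was picked. The normexp correction gave -0.29.

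Vtn and Rgs5, which brain pericytes express strongly, overlapped between the groups. Vtn encodes vitronectin, a matrix protein that binds integrins. It read 1.69, 1.85 and 1.80 on knockout 1, 2 and 3, against 1.82, 1.91 and 2.17 on wild-type 1, 2 and 3. Knockout 2 lay just above the lowest wild-type array, and wild-type 3 stood above the others. The difference of -0.19 ± 0.11 (SE) was -0.08 without wild-type 3. Under quantile normalization it was -0.22 and the groups no longer overlapped. Rgs5, a regulator that speeds the shutting off of G-protein signals, read -0.30, -0.20 and -0.44 on knockout 1, 2 and 3, against -0.03, -0.09 and -0.38 on wild-type 1, 2 and 3. Its wild-type 3 value was the lowest of that group, unlike for Vtn, and the difference of -0.14 ± 0.12 (SE) was -0.25 without that array, with groups then apart. After median centring it was 0.00, with the median of all genes at 0.13.

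The potassium channel subunits differed least of the 10. Kcnj8, the Kir6.1 pore subunit, read -3.88, -3.69 and -3.93 on knockout 1, 2 and 3, against -3.85, -3.62 and -3.91 on wild-type 1, 2 and 3. Abcc9, the SUR2 sulfonylurea receptor subunit, read -2.66, -2.34 and -2.62 on knockout 1, 2 and 3, against -2.32, -2.47 and -2.80 on wild-type 1, 2 and 3. Both sets of values interleave. The differences were -0.04 ± 0.11 for Kcnj8 and -0.01 ± 0.15 for Abcc9 (SE). Their sign was not settled, since Kcnj8 ranged from -0.11 to 0.10 and Abcc9 from -0.14 to 0.13 over the alternatives tried, and both were positive under quantile normalization, normexp and median centring.

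**Figure D2:**
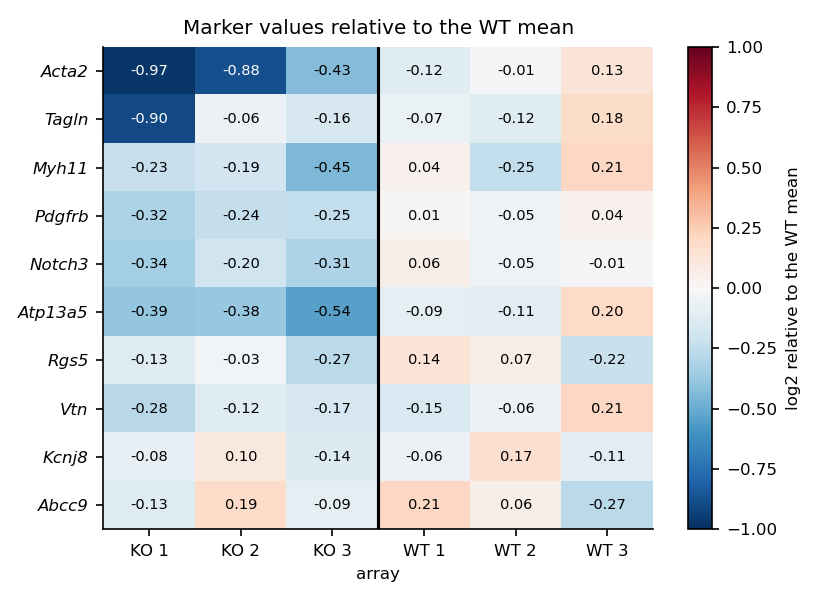
Each marker (rows) on each array (columns, knockout left of wild type), as log2 signal relative to the mean of the 3 wild-type arrays, with the value printed in each cell. Acta2 and Tagln share their low value on knockout 1 (-0.97 and -0.90), whereas on knockout 2 they read -0.88 and -0.06.

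The members did not follow 1 pattern across the 6 arrays. Likeness was measured as the root mean square difference between profiles centred on their own mean over the 6 arrays. By this measure Pdgfrb and Notch3 were nearest to each other (0.04), as were Atp13a5 and Myh11 (0.11) and Rgs5 and Abcc9 (0.10), while Kcnj8 was nearest to Rgs5 (0.12). Acta2 had no near neighbour among the members: its nearest was Atp13a5 (0.28) and its farthest was Abcc9 (0.48). The profiles were not scaled, so this distance also depends on how much a member varied. The SD over the 6 arrays was 0.46 for Acta2 and 0.13 to 0.37 for the others. Kcnj8 varied least (0.13), and its distance of 0.12 from Rgs5 is about as large as that SD and shows little likeness. Wild-type 3 held the highest wild-type value for 6 members (Acta2, Pdgfrb, Atp13a5, Tagln, Myh11 and Vtn) and the lowest for 3 (Rgs5, Kcnj8 and Abcc9). Relative to the wild-type mean, the median of the 3 contractile genes was -0.90, -0.19 and -0.43 on knockout 1, 2 and 3, and -0.07, -0.12 and 0.18 on wild-type 1, 2 and 3. The other 7 members had medians of -0.28, -0.12 and -0.25 on the knockout arrays and 0.01, -0.05 and -0.01 on the wild-type arrays. On each knockout array both medians lay below all 3 wild-type medians. Both parts hold members picked for low knockout values, Acta2 in the first and Pdgfrb, Notch3 and Atp13a5 in the second, so nothing is read from this.

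Among genes outside the set that were well above background on all arrays and varied at least as much, those with the profile nearest to the members' mean were Gm9978, Rbm11, Olfr1372-ps1, 5430431A17Rik and Kirrel, with root mean square differences of 0.042 to 0.049 over the 6 arrays (8654 candidates). Nearest to Acta2 alone were Cxcr4 (0.089), a chemokine receptor, Bdh2 (0.10) and Traf1 (0.15), out of 1430 candidates. Cxcr4, chosen for this likeness, read -6.50, -6.42 and -5.84 on knockout 1, 2 and 3, against -5.74, -5.37 and -5.40 on wild-type 1, 2 and 3. Like Acta2 it came nearest to wild type on knockout 3, which follows from that choice. The signal of Cxcr4 was dim, at a level like that of Myh11.

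**Figure D3:**
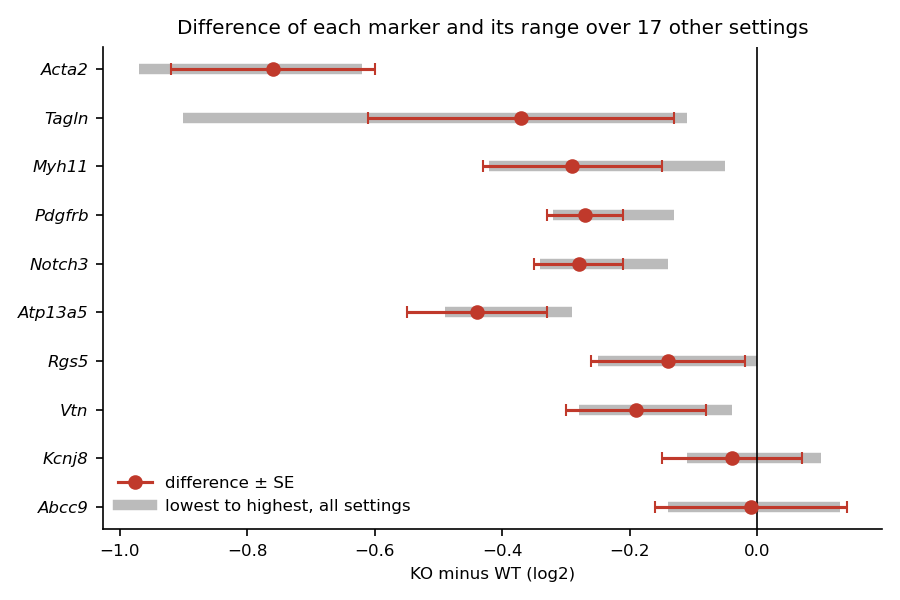
Knockout minus wild type (log2) for each marker, as a point with its standard error, over a grey bar from the lowest to the highest value in all settings tried. The bars of Kcnj8 and Abcc9 cross 0, that of Rgs5 ends at 0.00, and that of Tagln runs from -0.90 to -0.11.

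Ligands, partner proteins and regulators of the members were read from lists, and 0 of the 116 tested genes of 17 lists passed limma's adjusted threshold in either direction. Of 5 platelet-derived growth factor genes tested, 0 had groups apart, where 19.8% of all genes did. Pdgfb, the ligand of Pdgfrb from endothelium, read 1.54, 1.79 and 1.63 on knockout 1, 2 and 3, against 1.41, 1.65 and 1.87 on wild-type 1, 2 and 3, with a difference of 0.01 ± 0.14 (SE). Pdgfra, the related receptor of fibroblasts and oligodendrocyte precursors, differed by -0.10 ± 0.10 (SE).

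The Notch pathway was mixed. Of 12 tested receptors, ligands and targets, 7 were lower and 5 higher in knockout. Groups were apart in 3 lower (Notch2, Dll1 and Hey1, against 12.2% of all genes) and 1 higher (Dll4, against 7.60%). These genes were named after their values were seen, and the counts depended on the scaling. Under quantile normalization groups were apart in 2 lower (8.01% of all genes) and 2 higher. After median centring they were apart in 0 lower (4.87% of all genes) and 4 higher. Notch2 and Hey1 then differed by -0.10 and -0.01. Notch2 is also expressed by mural cells, and read -1.54, -1.52 and -1.59 on knockout 1, 2 and 3, against -1.28, -1.23 and -1.41 on wild-type 1, 2 and 3. Its difference of -0.24 ± 0.07 (SE) was close in size to that of Notch3, and its adjusted p in limma was 0.317. A dimmer second probe of Notch2 differed by -0.02. The probe of Dll1 that stood for the gene differed by -0.35 (-0.13 without wild-type 3), while a second Dll1 probe, well above background on 1 of the 3 wild-type arrays, differed by 0.59 with groups apart the other way. Heyl, a Notch target of mural cells, differed by -0.09 ± 0.09 (SE), and by 0.02 to 0.05 under the other scalings. Dll4, the ligand of arterial endothelium, differed by 0.31 ± 0.08 (SE) with an adjusted p of 0.301 in limma. Its signal was dim, and the difference was 0.18 after normexp and 0.46 under quantile normalization. The list's median was -0.05, which was -0.04 relative to the median of all genes both in the main scaling and after median centring, and 0.02 under quantile normalization.

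Of the serum response factor group, Srf, Mrtfa and Mrtfb differed by 0.06, 0.04 and 0.04. Myocd, the coactivator restricted to smooth and cardiac muscle, read -7.64, -7.87 and -7.69 on knockout 1, 2 and 3, against -7.20, -7.44 and -6.56 on wild-type 1, 2 and 3. Its groups were apart and its difference was -0.66 ± 0.23 (SE, adjusted p = 0.358 in limma), but the signal was dim and after normexp the difference was -0.07. Other actins had smaller differences than Acta2. Actb and Actg1, the actins of all cells, differed by 0.01 and -0.08, the skeletal isoform Acta1 by 0.18, and the visceral smooth muscle isoform Actg2 by -0.51 ± 0.38 (SE). Groups were apart in 0 of these 4, against 19.8% of all genes. Without wild-type 3 Acta1 differed by 0.01 and Actg2 by -0.14, and after normexp Actg2 differed by -0.12. The other subunits of this channel family, Kcnj11 and Abcc8, differed by 0.11 and 0.21, and by -0.03 and 0.12 without wild-type 3. A dimmer second probe of Kcnj11 differed by 0.45. Of 5 partners of vitronectin, 0 had groups apart (19.8% of all genes did), with integrin subunits Itgav, Itgb3 and Itgb5 at 0.13, 0.01 and 0.06. Without wild-type 3 Itgb3 differed by -0.17 and Itgav by 0.08.

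A second set of 25 tested pericyte and smooth muscle markers had a median difference of -0.12, with 21 lower and 4 higher. Of all genes, 53.1% were lower. The split depended on the scaling, with 16 lower and 9 higher under quantile normalization, and 12 lower and 13 higher after median centring. Since 4 of the 10 members were picked for low knockout values, the 2 medians are not compared. Relative to the median of all genes, the median of the second set was -0.11, also after median centring, and -0.05 under quantile normalization. Groups were apart in 3 lower members, close to the 12.2% of all genes, and in 0 higher ones (7.60% of all genes). After median centring groups were apart in 1 lower (4.87% of all genes) and 2 higher. The 3 lower ones in the main scaling, Pln, Cox4i2 and Ifitm1, were named after their values were seen. Pln, the phospholamban that restrains calcium uptake in muscle, read -7.83, -8.03 and -7.84 on knockout 1, 2 and 3, against -7.02, -6.93 and -6.50 on wild-type 1, 2 and 3. Its difference of -1.08 ± 0.15 (SE) had an adjusted p of 0.191 in limma and was -0.15 after normexp. Cox4i2, a cytochrome oxidase subunit found in pericytes, differed by -0.19 ± 0.06 (SE, adjusted p = 0.345 in limma). After normexp it differed by -0.08 and after median centring by -0.05. Ifitm1 differed by -0.55 ± 0.19 (SE, adjusted p = 0.358 in limma), and by -0.48 after normexp and -0.41 after median centring. The members of this set with the strongest signals, Rgs4, Mcam, Slc19a1 and Higd1b, differed by 0.05, -0.06, -0.01 and -0.12. Rgs4 averaged 4.10 in wild type, far above Mcam at 1.97. Which cells gave these bulk signals was not tested.

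Markers of neighbouring cell types were set beside these values. Endothelium, the other cell of the vessel wall, had 9 of 15 tested markers lower and 6 higher with a median of -0.08, and 0.02 under quantile normalization. Its summed signal ranged from 32.2 to 37.0 in knockout and from 30.5 to 36.6 in wild type, with groups apart in 1 lower gene (12.2% of all genes). Markers of meninges and fibroblasts were lower in 12 of 12 (11 after median centring) with a median of -0.48 (-0.30 without wild-type 3) and groups apart in 6, against 12.2% of all genes. Their summed signal ranged from 10 to 13.6 in knockout and from 12.5 to 21.0 in wild type. Their median was lowest on knockout 1 (-0.76), as were those of endothelium (-0.13) and the second mural set (-0.14), while that of choroid plexus was lowest on wild-type 2 (-1.15). Knockout 1 was the lowest knockout array for Acta2, Pdgfrb, Notch3, Tagln, Abcc9 and Vtn, and knockout 3 for the other 4 members. Choroid plexus markers, lower in 6 of 6, summed to 8.08 to 14.5 in knockout and 5.14 to 25 in wild type. Striatum markers, lower in 6 of 6, had a median of -0.93, and -0.37 without wild-type 3. Skeletal muscle markers, 2 of 7 lower, summed to at most 0.646 in knockout and to 0.428 to 0.554 in wild type. The lowest knockout sum, 0.273 on knockout 2, lacks Myh2, the strongest of them, which had no value on that array. It is therefore not comparable with the other sums. Red blood cell markers summed to 0.949 to 15.9 in knockout, and all wild-type sums lay within that range. Astrocyte markers were lower in 3 of 3, with a median of -0.20, and oligodendrocyte markers in 2 of 3, with a median of -0.24. The medians of neuron and microglia markers were 0.00 and -0.01, each with 2 of 3 lower. The part of these tissues in the values of the 10 members was not tested. Without wild-type 3 the members' median was -0.25 and groups were apart in 5 of them, Rgs5 in addition to the 4 named above, where 17.2% of all genes were apart in this direction.

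**Figure D4:**
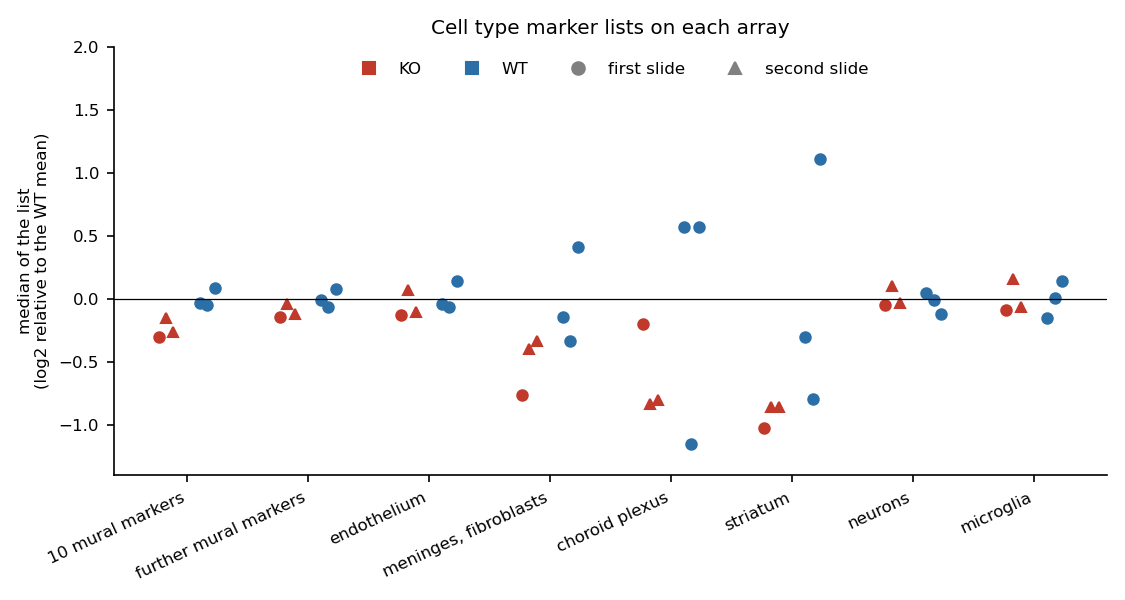
Median of the 10 mural markers and of other marker lists on each array (log2 relative to the wild-type mean), with knockout (red) left of wild type (blue), and circles and triangles for the first and second slide. The mural markers stood between -0.30 and -0.15 in knockout and between -0.05 and 0.09 in wild type. They include members picked for low knockout values, so they are not compared with the lists. Among the lists drawn, the wild-type arrays spread most in choroid plexus and striatum. Astrocytes and oligodendrocytes are not drawn.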

How the data were processed

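Total RNA was labelled with Cy3 and hybridised to 1-colour arrays of Agilent design 026655, 1 sample per array. The deposited files hold spot intensity on a linear scale from Agilent Feature Extraction 12.1.1.1, background-subtracted and detrended, with coordinates on mm9, per the file headers. Outlier spots (68 to 530 per array) and 1377 control spots were left out, log2 of the processed signal was averaged over the spots of a probe, and each array's 75th percentile over probes was subtracted. Probes entered the test if 1 genotype or both had them well above background throughout, with 2 or more values per genotype. The probe with the highest mean stood for a gene, named through RefSeq accessions where matched (29510 probes).

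Knockout and wild type were compared with limma 3.58.1 in R 4.3.3, with no covariate, two-sided, at a Benjamini-Hochberg adjusted p of 0.05. The script was tested on simulated data. In no pair of arrays were probe values identical (0%). Replicate numbers were checked as pairs: deviations of same-numbered arrays correlated at -0.02, -0.13 and -0.12 over genes, so they were not used as pairs. Summed signals add linear signals in units of the 75th percentile. The members and the gene lists were chosen with earlier results of these data known. Genes were named by rule: all members, pathway genes by role, at most 4 strong-signal genes of each marker list and the nearest profiles. Pln, Cox4i2 and Ifitm1 were named outside this rule, after their values were seen. Promoters came from RefSeq (GRCm38.p6).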

Additional observations from a re-analysis of the deposited data

How the results depend on the processing

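The count of genes past the adjusted threshold was 0 in limma under 16 of the 17 alternatives, and 60 without knockout 1 (47 higher, 13 lower), when each genotype lay on its own slide; 0 members were among them. Leaving out 1 array in turn gave 0 to 60 genes, a member median of -0.30 to -0.20 and 4 to 6 members with groups apart and lower, where the share of all genes apart in this direction was 14.8% to 21.1%. Unadjusted p-values under 0.05 numbered 2806, 1259 with the slide as a fixed block, 977 on the slide that holds both genotypes (where knockout 1 is assumed to vary like the others) and 3943 after median centring. With the replicate block 0 genes passed (2406 at an unadjusted p under 0.05) and the member median stayed at -0.28. Lower genes made up 75.3% of the unadjusted calls, 51.9% under quantile normalization, 49.0% after normexp and 24.6% after median centring. Acta2 ranged from -0.97 to -0.62, Pdgfrb from -0.32 to -0.13, Notch3 from -0.34 to -0.14 and Atp13a5 from -0.49 to -0.29 over all settings. Counts of groups apart were not taken from fits with a block. Myh11 and Pln were dim, and their differences of -0.29 and -1.08 became -0.05 and -0.15 after normexp. Under quantile normalization alone they were -0.14 and -1.09. The normexp setting changed the background correction, the offset and the normalization together, so the part of each was not tested.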
